A study of Rattus norvegicus with 192 samples.

Results

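The nucleus accumbens core libraries with the highest and the lowest level of Irf7, the transcription factor that amplifies the interferon response, were set against each other in outbred heterogeneous stock rats. Of the 159 libraries in the deposited table, 147 were kept because Drd1, the D1 dopamine receptor that marks striatal projection neurons, stood at 100 CPM or more. CPM is the share of a gene in the total expected count of its library, per 1000000. The 147 libraries were ranked by Irf7 CPM, and the 36 highest (high group) were compared with the 36 lowest (low group), with the other 75 libraries left between them. These 72 libraries are of 192 samples that the labels list, of which 33 carry a note of removal and were not analysed here. The 12 libraries below the Drd1 minimum had at most 20.0 CPM of Drd1, and the lowest of those kept had 154 CPM.

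All groups are polyA RNA of one tissue from one outbred population. The labels name no treatment, infection, sex, age or collection date for any rat, so the groups are defined by the Irf7 level alone and the comparison is of association with that level. Each library carries its own rat identifier and was counted as 1 rat. Nothing in the labels says how the tissue was handled, and p-values measure the spread between these libraries. In such whole-tissue samples, fewer cells of a type and less RNA per cell cannot be told apart.

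Interferons are secreted proteins that bind receptors on the cell surface and, through JAK kinases and proteins of the STAT and IRF families, switch on a large set of antiviral genes. Irf7 is itself one of these genes, and its protein drives the transcription of further interferon, which makes it a sensitive marker of the state. In the brain, microglia, endothelial cells and astrocytes are known to respond, and a low constitutive tone of the pathway is present without infection.

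Irf7 chose the libraries, so its own values describe the groups and are not a result. The low group spanned 0.596 to 2.29 CPM (median 1.75), and the nearest library outside it had 2.30 CPM. The high group spanned 4.60 to 16.5 CPM (median 5.57), and the nearest library outside it had 4.56 CPM. The groups thus met the middle libraries with no gap, and only the top 3 libraries, at 9.34, 11.7 and 16.5 CPM, stood away from a smooth gradient. At these levels Irf7 rested on few reads, with an expected count of 12 in the lowest kept library and a median of 77. Total expected counts of the kept libraries were between 14.6 and 61.2 M (M standing for 1000000) and averaged alike in the groups (24.8 ± 7.48 M, SD, n = 36, in the low and 25.4 ± 7.06 M, SD, n = 36, in the high group, permutation test, two-sided p = 0.716).

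**Figure D1:**
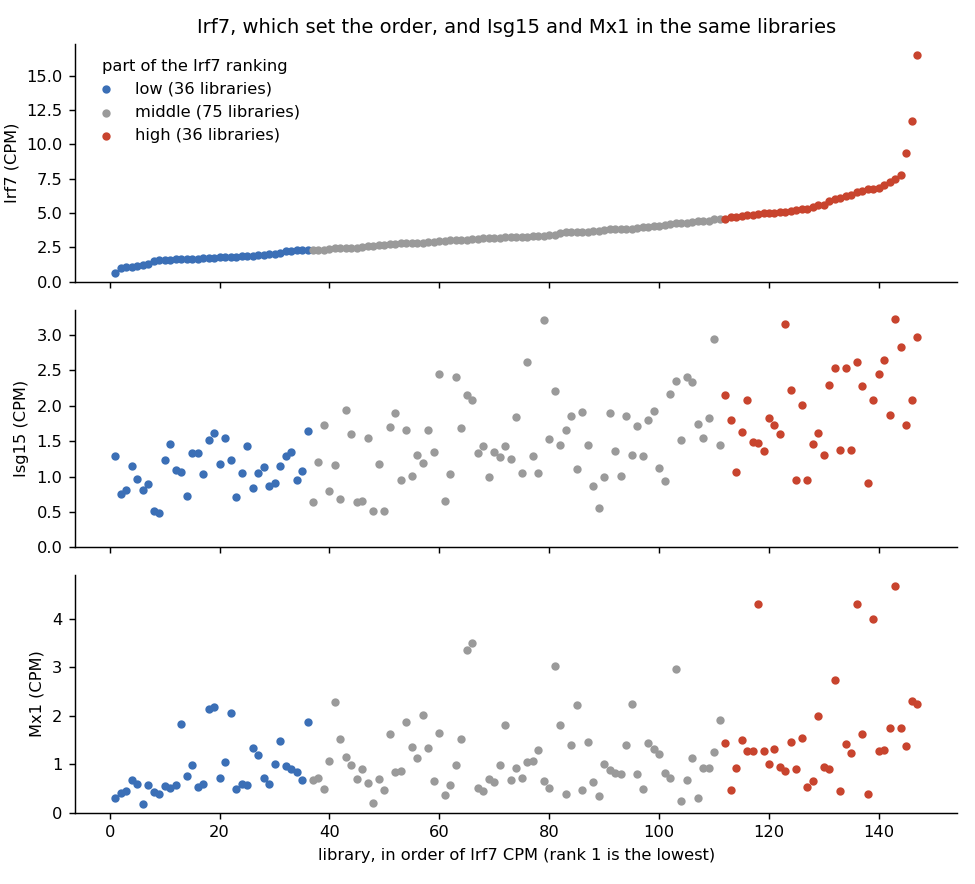
Level of Irf7, Isg15 and Mx1 in CPM (vertical axes) in the 147 kept libraries in order of Irf7 (horizontal axis, 1 point per library), coloured by part of the ranking. Irf7 set the order and spans 0.596 to 16.5 CPM, while Isg15 and Mx1 are scattered at every rank and are higher on the right.

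The identifier formats were spread over both groups. Libraries with an E21 identifier were 20 of 36 in the low and 17 of 36 in the high group, and those with an all-digit identifier were 12 and 15. Corrected E21 identifiers were on 4 and 3 libraries. Xist, the RNA of the inactive X chromosome, which was looked at after its values were seen, was over 10 CPM in 23 of 36 libraries of the low group and in 13 of 36 of the high group (Fisher's exact test, two-sided p = 0.0332, 0.166 after adjustment over 5 classes). With the Xist side as a covariate, 169 genes were higher instead of 352, of which 63 were interferon genes, and 9 were lower instead of 59.

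Of 15326 genes with a mean of 1 CPM or more, Irf7 left out, 352 were higher in the high group (2.3% of genes tested) and 59 were lower (0.385%), by limma's moderated test on log2(CPM + 1) at an adjusted p of 0.05. The median change of all genes was 0.004. With median-of-ratios scaling the calls were 289 higher and 104 lower, so that 73.5% of calls were higher against 85.6% here. Of 132 tested members of 10 interferon-related lists, 70 (53%) were higher, 0 were lower and 116 had a positive change, with a median of 0.21 on the log2 scale. All changes are on the log2(CPM + 1) scale, which understates the change of genes near 1 CPM, and 54 of the 70 called interferon genes had a mean under 10 CPM.

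Isg15 and Mx1 are classic interferon-induced genes and serve here as markers that the ranking did not use. Isg15, a ubiquitin-like protein joined to other proteins, was at 0.481 to 1.65 CPM in the low group (median 1.09) and at 0.912 to 3.22 CPM in the high group (median 1.85). Its change was 0.47 (SE 0.062, adjusted p = 9.8e-08), and 32 of 36 high libraries were above the low median. Mx1, a dynamin-like antiviral GTPase, was at 0.182 to 2.17 CPM in the low group (median 0.675) and at 0.393 to 4.67 CPM in the high group (median 1.30). Its change was 0.43 (SE 0.104, adjusted p = 0.013), with 31 of 36 high libraries above the low median. Both markers overlapped widely between the groups. A ranking by Isg15 put 18 of the 36 high Irf7 libraries (50%) in its own top 36, and a ranking by Mx1 put 13 (36.1%) there. The low groups shared 15 libraries by Isg15 and 17 by Mx1. Of the high Irf7 group, 3 libraries were in the lowest 36 by Isg15 and 4 by Mx1, and of the low Irf7 group 0 and 6 were in the top 36. With 36 of the 147 kept libraries in each group, unrelated genes would also share some, and the overlaps were not tested.

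Antiviral effectors act directly on viral RNA, proteins or budding. Of 33 tested effectors, 16 were higher and 0 lower, with a median change of 0.19. Oas1a, a sensor of double-stranded RNA that makes oligoadenylates, was at 0.175 to 1.23 CPM in the low group (median 0.576) and at 0.738 to 3.40 CPM in the high group (median 1.53). Its change was 0.68 (SE 0.066, adjusted p = 3.1e-12), and 27 of 36 high libraries exceeded every low library. Rsad2, known as viperin, an enzyme that blocks viral replication, was at 0.354 to 3.15 CPM (median 1.47) in the low and 1.29 to 6.24 CPM (median 2.82) in the high group. Its change was 0.63 (SE 0.080, adjusted p = 3e-08). Ifit3, which belongs to a family that binds foreign RNA, was at 0.143 to 2.02 CPM (median 0.991) in the low and 0.757 to 4.01 CPM (median 2.04) in the high group. Its change was also 0.63 (SE 0.081), and 35 of 36 high libraries were above the low median. For Rsad2 and Ifit3 the ranges of the groups overlapped, and 35 and 36 of the 36 low libraries were below the median of the high group.

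Ifi27, an interferon-induced membrane protein, showed a large change with a wide spread. It was at 5.6 to 49.8 CPM in the low group (median 17.7) and at 9.51 to 73.7 CPM in the high group (median 26.9), a change of 0.73 (SE 0.173, adjusted p = 0.0098). Only 27 of 36 high libraries were above the low median. The membrane-bound restriction factors were also higher. Bst2, or tetherin, which holds budding virus on the cell, went from a median of 3.19 to 5.07 CPM (change 0.51, SE 0.077). Ifitm3, which blocks viral entry, went from 3.86 to 5.79 CPM (change 0.50, SE 0.078). Slfn2, of the schlafen family, went from 3.02 to 4.53 CPM (change 0.56, SE 0.064), and all 36 high libraries were above the low median. Mx2 (change 0.49, SE 0.112), Ifi44 (0.43, SE 0.065) and Oasl2 (0.38, SE 0.058) completed the called effectors named here. Ifit1, a relative of Ifit3, was below 1 CPM on average and was not tested. It was above 0 in 20 low and 27 high libraries.

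**Figure D2:**
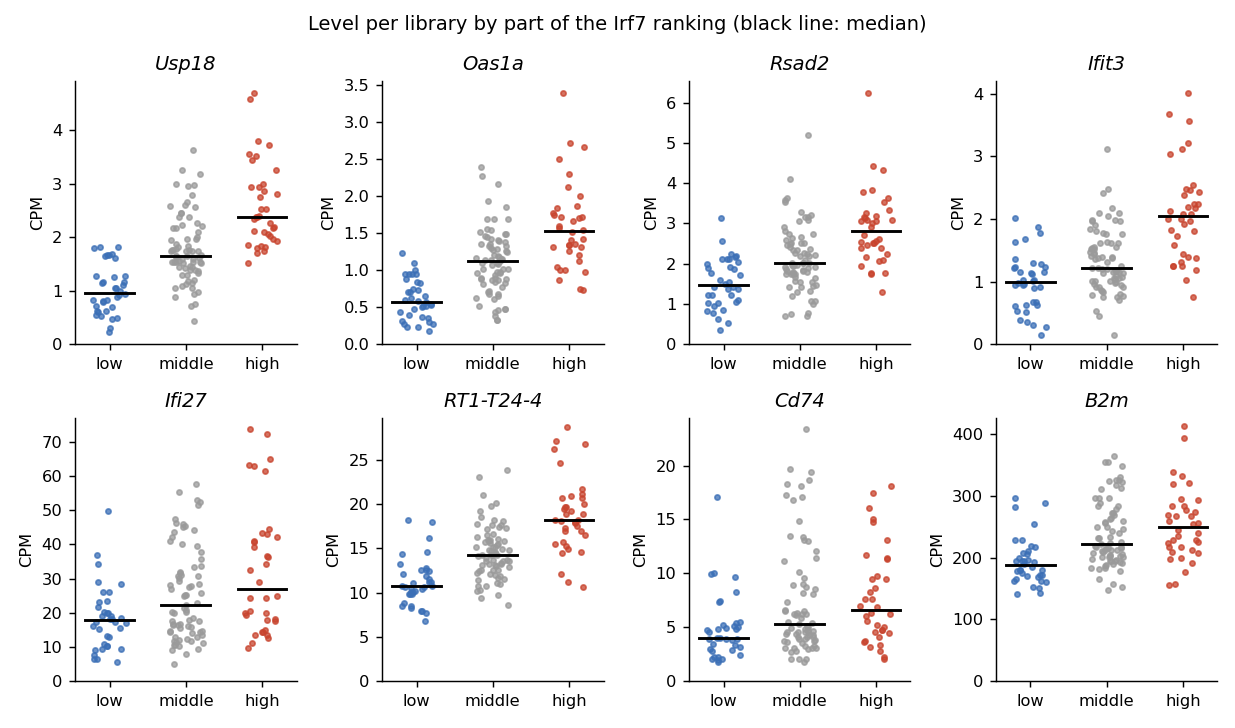
CPM (vertical axes) of 8 genes in each library (points, spread sideways) of the low (36), middle (75) and high (36) part of the Irf7 ranking (horizontal axis), with the median as a black line. Usp18 and Oas1a are the most separated, with medians of 0.963 and 2.38 CPM for Usp18, and Ifi27, Cd74 and B2m overlap most.

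Of the factors of the ISG15 and ubiquitin system and the PARP enzymes, 21 of 26 tested were higher and 0 lower (median change 0.28). Usp18, the protease that removes ISG15 and restrains the interferon receptor, had the largest change of any called gene. It was at 0.236 to 1.81 CPM in the low group (median 0.963) and at 1.51 to 4.69 CPM in the high group (median 2.38). Its change was 0.83 (SE 0.074, adjusted p = 5.8e-14). All 36 high libraries were above the low median and 32 of them were above every low library. Rtp4, a chaperone of membrane receptors that is induced by interferon, was at 0.582 to 2.60 CPM (median 1.37) in the low and 1.75 to 4.78 CPM (median 2.58) in the high group. Its change was 0.66 (SE 0.068, adjusted p = 1.2e-11), again with all 36 high libraries above the low median.

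Several PARP genes were among them. Parp14 (change 0.42, SE 0.048), Parp9 (0.39, SE 0.051) and Parp12 (0.32, SE 0.054), all of a family named for the transfer of ADP-ribose, were higher, as was Parp10, chosen after its values were seen, by 0.21. Uba7, the enzyme that activates ISG15, was higher by 0.32 (SE 0.054), and Herc6, a ligase of the ISG15 family of reactions in rodents, by 0.37 (SE 0.064). Lgals9, a lectin, was at 6.40 to 15.2 CPM in the low group (median 10.2) and at 10.3 to 23.2 CPM in the high group (median 13.9). Its change of 0.41 (SE 0.059) came with all 36 high libraries above the low median. Lgals3bp (0.41, SE 0.061) and Sp100, a nuclear body protein (0.37, SE 0.057), changed alike in size.

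The genes upstream of these include the receptors and their kinases. Of 11 tested receptors, kinases and their regulators, 0 were called in either direction by limma, and the median change was -0.0078. With 2.3% of all genes higher and 0.385% lower, a list of this size would hold few calls or none. Ifnar1, a chain of the type I interferon receptor, was at a median of 81.7 CPM in the low and 84.7 CPM in the high group (change 0.04, SE 0.023, adjusted p = 0.32). Jak1, a kinase of the receptor, was at 141 and 135 CPM (change -0.07, SE 0.035, adjusted p = 0.22). Of this list, Ifngr1, a chain of the interferon gamma receptor, had the smallest p, with medians of 45.0 and 50.5 CPM (change 0.12, SE 0.046, adjusted p = 0.12). Interferon transcripts themselves were at or near 0. None of the 10 ligands in the table reached a mean of 1 CPM. Ifnb1 was above 0 in 1 low and 0 high libraries, Ifna4 in 5 and 4, and Ifng in 2 and 0, and the highest value of any ligand was 0.202 CPM.

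Transcription factors of the pathway split. Irf9, the DNA-binding part of the ISGF complex, was at 6.91 to 11.9 CPM in the low group (median 9.70) and at 8.94 to 18.0 CPM in the high group (median 12.6). Its change was 0.33 (SE 0.044, adjusted p = 7e-08), with 34 of 36 high libraries above the low median. Irf8, a factor of myeloid cells, and Irf1 were each higher by 0.18 (adjusted p = 0.030 and 0.043). With the Xist side as a covariate, limma called neither Irf8 nor Irf1 (adjusted p = 0.062 and 0.084). Stat2 (change 0.03, SE 0.041), Irf3 (0.03, SE 0.072), Irf2 (-0.01, SE 0.025) and Stat3 (0.01, SE 0.030) were not called. In all, 4 of 12 tested factors were higher and 0 lower.

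Among the sensors of nucleic acids, 4 of 10 tested genes were higher and 0 lower. Dhx58, a helicase that regulates RNA sensing, went from a median of 2.10 to 2.92 CPM (change 0.33, SE 0.052, adjusted p = 1.1e-05), and 35 of 36 high libraries were above the low median. Ifih1, the helicase that senses long double-stranded RNA, went from 2.80 to 3.59 CPM (change 0.31, SE 0.060). Sting1, the adaptor of DNA sensing, was higher by 0.25 (SE 0.063, adjusted p = 0.018) and Tlr7, an endosomal RNA receptor, by 0.19 (SE 0.054, adjusted p = 0.036). The adaptor Mavs (0.08, SE 0.038) and the kinase Tbk1 (-0.04, SE 0.030) were not called.

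All 7 tested guanylate binding proteins and immunity related GTPases, which attack membranes around intracellular microbes, were higher. Irgm had the largest change of the 7, from a median of 3.03 to 4.47 CPM (0.44, SE 0.060, adjusted p = 2.3e-07). Gbp2, Igtp, Irgm2, Gbp5, Gbp7 and Ifi47 had changes between 0.28 and 0.37, and Ifi47 was the weakest (SE 0.077, adjusted p = 0.03). Since these genes have close copies, reads could be shared between them.

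Antigen presentation by MHC class I was higher in 12 of 19 tested genes and lower in 0. RT1-T24-4, a class I gene of the rat MHC on chromosome 20, was at 6.72 to 18.2 CPM in the low group (median 10.7) and at 10.6 to 28.7 CPM in the high group (median 18.2). Its change was 0.70 (SE 0.071, adjusted p = 1.2e-11), with 35 of 36 high libraries above the low median. Its neighbour in name RT1-T24-3 changed by 0.56 with a wider spread (SE 0.152, adjusted p = 0.028), and RT1-S3 by 0.48 (SE 0.062). The rat class I genes are near-copies of each other and differ between founder strains of an outbred stock, so values of single class I genes are uncertain. B2m, the invariant light chain, has no such copies in the list and was at 141 to 297 CPM (median 187) in the low and 155 to 413 CPM (median 250) in the high group. Its change was 0.38 (SE 0.068, adjusted p = 0.00019). The immunoproteasome subunits Psmb8 (0.34, SE 0.069) and Psmb9 (0.27, SE 0.066), the peptide transporter Tap1 (0.22, SE 0.057) and the loading factor Tapbp (0.15, SE 0.035) were higher as well.

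All 5 tested MHC class II genes, which are normally read in microglia, macrophages and other presenting cells, were higher. Cd74, the class II invariant chain, was at 1.78 to 17.1 CPM in the low group (median 4.00) and at 1.99 to 18.1 CPM in the high group (median 6.58). Its change was 0.54 (SE 0.155, adjusted p = 0.038), and limma did not call it with the Xist side as a covariate (adjusted p = 0.10). RT1-Da went from a median of 0.565 to 1.41 CPM (0.53, SE 0.114) and RT1-DMb from 11.9 to 14.6 CPM (0.38, SE 0.070). For Cd74 and RT1-Da the full ranges of the groups were nearly the same, and the difference was in the middle of the distributions.

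Chemokines and cytokines that usually accompany inflammation were mostly too low to test. Of 22 in the table, 9 reached a mean of 1 CPM, and 1 of these was called. This was Tnfsf10, the death ligand TRAIL, which went from a median of 4.23 to 5.21 CPM (change 0.22, SE 0.066, adjusted p = 0.049). Cxcl10, a chemokine strongly induced by interferon, was on average below 1 CPM, was above 0 in 35 low and 34 high libraries and reached at most 1.75 CPM. Ccl2 was above 0 in 22 low and 27 high libraries, and Il1b in 23 and 32. Nfkbia (0.08, SE 0.097) and Tnfaip3 (0.03, SE 0.055), targets of the NF-kappa-B pathway, were not called.

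Promoter windows were searched for the 2-part element to which IRF proteins bind. The windows are RefSeq's for the rat assembly GRCr8 and run for 300 bases around each start site. The pattern searched was GAAANNGAAA, or TTTCNNTTTC on the other strand, with any base at N. It was present in 30 of 60 interferon genes called higher that had a window (50%), in 14 of 51 tested interferon genes not called higher (27.5%), in 16 of 216 other genes called higher (7.41%) and in 1 of 51 genes called lower (1.96%). Over all 27457 windows the share was 3.77%, and over the 12542 windows of tested genes it was 2.85%. The pattern TTCNNNGAA, the core of STAT dimer sites and the same on both strands, was in 14 of the 60 windows (23.3%). It was in 6.78% of the windows of tested genes and in 8.68% of all windows. The STAT pattern was in 8 of the 51 tested interferon genes not called higher (15.7%). Of the 216 other genes called higher it was in 13 (6.02%), and of the 51 called lower in 3 (5.88%). The 2 patterns can overlap in a window. A match is a description of the letters and does not show binding. Of the genes named above, Usp18, Isg15, Rtp4 and Dhx58 were among those without a window. Mx1, Slfn2, Herc6, Parp9, Irf9 and RT1-T24-4 were among those whose window lacked the IRF pattern. The stretches below belong to some of the genes named above whose window held the IRF pattern. They are read on the strand of the gene, with the matching letters in capitals, for Irf7 at chr1:205800073-205800102, Ifit3 at chr1:241527272-241527301, Rsad2 at chr6:48788248-48788277, Oas1a at chr12:41330415-41330444, Bst2 at chr16:18255079-18255108, Parp14 at chr11:78408048-78408077, Irgm at chr10:33742593-33742622, Gbp2 at chr2:234005686-234005715, B2m at chr3:129549170-129549199 and Tap1 at chr20:4668645-4668674. Irf7, Rsad2, Bst2, Irgm and Tap1 lie on the minus strand and the others on the plus strand.
Irf7: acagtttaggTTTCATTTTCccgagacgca
Ifit3: tttaagtctgTTTCAGTTTCtagtttccac
Rsad2: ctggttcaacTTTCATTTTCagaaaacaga
Oas1a: cccctctcggGAAATGGAAActgaaaatct
Bst2: ccctttccagGAAAATGAAActgaaaggtg
Parp14: tccaggaaatGAAAGTGAAAgaagtaagtt
Irgm: tcaaggaataGAAACTGAAAccgactctct
Gbp2: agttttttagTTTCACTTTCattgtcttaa
B2m: ataagaacatGAAACTGAAAatgggaaagt
Tap1: cggtggctgcTTTCGGTTTCttcttcctct

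Outside the interferon lists, 282 genes were higher, with a median change of 0.22 against 0.33 for the 70 interferon genes. Complement genes led them. C4a, the complement component cleaved in the classical pathway, was at 8.46 to 16.7 CPM in the low group (median 10.7) and at 8.59 to 30.3 CPM in the high group (median 17.5). Its change was 0.58 (SE 0.065, adjusted p = 3.7e-10), and 21 of 36 high libraries exceeded every low library. Cfb, the protease of the alternative pathway, went from a median of 4.72 to 7.47 CPM (0.55, SE 0.059, adjusted p = 8.4e-11), and all 36 high libraries were above the low median. Serping1, an inhibitor of C1 (0.45, SE 0.110), and C1r, its target protease (0.34, SE 0.083), were also higher, and in all 8 of 11 tested complement and acute phase genes were. C4a and Cfb lie in the MHC on chromosome 20, as do the RT1 genes named above, and 27 of 438 tested genes of that chromosome were higher (6.16%), the highest share of any chromosome.

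Markers of several cell types moved with the Irf7 level. Of 15 tested microglial markers, 10 were higher and 0 lower, with a median change of 0.20. Their summed level was 564 to 949 CPM in the low group (median 665) and 577 to 1098 CPM in the high group (median 758). Csf1r, the receptor that keeps microglia alive, went from a median of 87.1 to 99.6 CPM (0.17, SE 0.041, adjusted p = 0.011), and 32 of 36 high libraries were above the low median. Cx3cr1 (0.19, SE 0.045) and Itgam (0.26, SE 0.065) changed to a like degree. The mean standardised level of the list was -0.34 ± 0.499 (SD, n = 36) in the low and 0.342 ± 0.726 (SD, n = 36) in the high group (permutation p = 1e-05, the smallest that the resamples can give, adjusted p = 0.000135 over 27 measures).

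Endothelial genes were higher in 6 of 13 cases, with Slco1a4, a blood-brain barrier transporter, changed by 0.26 (SE 0.051) and the tight junction protein Cldn5 by 0.25 (SE 0.068). Astrocyte genes were higher in 3 of 12 cases. Gfap, the intermediate filament of astrocytes, was at 74.9 to 266 CPM (median 164) in the low and 112 to 427 CPM (median 242) in the high group, a change of 0.46 (SE 0.105, adjusted p = 0.0068). Vim (0.32, SE 0.092) and Hspb1 (0.30, SE 0.088), 2 further genes of reactive astrocytes, were higher too. Summed endothelial levels were 415 to 605 CPM in the low and 453 to 836 CPM in the high group, and summed astrocyte levels 5774 to 9482 and 5889 to 10433 CPM.

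No single marker of several other cell types was called. Of 12 oligodendrocyte genes, 8 precursor genes, 10 mural genes, 8 meningeal genes and 8 red blood cell genes, 0 passed limma's threshold, although their median changes were positive (0.076, 0.057, 0.13, 0.27 and 0.17). The mean standardised level of the meningeal list was nonetheless higher, at -0.228 ± 0.638 (SD, n = 36) in the low and 0.284 ± 1.05 (SD, n = 36) in the high group (permutation test, adjusted p = 0.0436), and that of the mural list had an adjusted p of 0.055. Border macrophage markers such as Mrc1 (0.20, SE 0.078, adjusted p = 0.12) were not called either. Most lymphocyte and leukocyte markers were too low to test, and Cd3e had a mean of 0.191 CPM, Cd8a 0.0996 CPM and Cd79a 0.0946 CPM over the kept libraries. The 2 tested members, Cd4 (16.4 CPM in the low and 17.6 CPM in the high group, change 0.09, SE 0.055) and Lck (2.15 and 2.29 CPM, change 0.06, SE 0.049), were not called. Cortical neuron markers, which report on neighbouring tissue, had a median change of -0.0055 over 10 genes and 0 calls. What part the cell-type markers have in the interferon differences was not tested beyond the covariate fits described next.

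**Figure D3:**
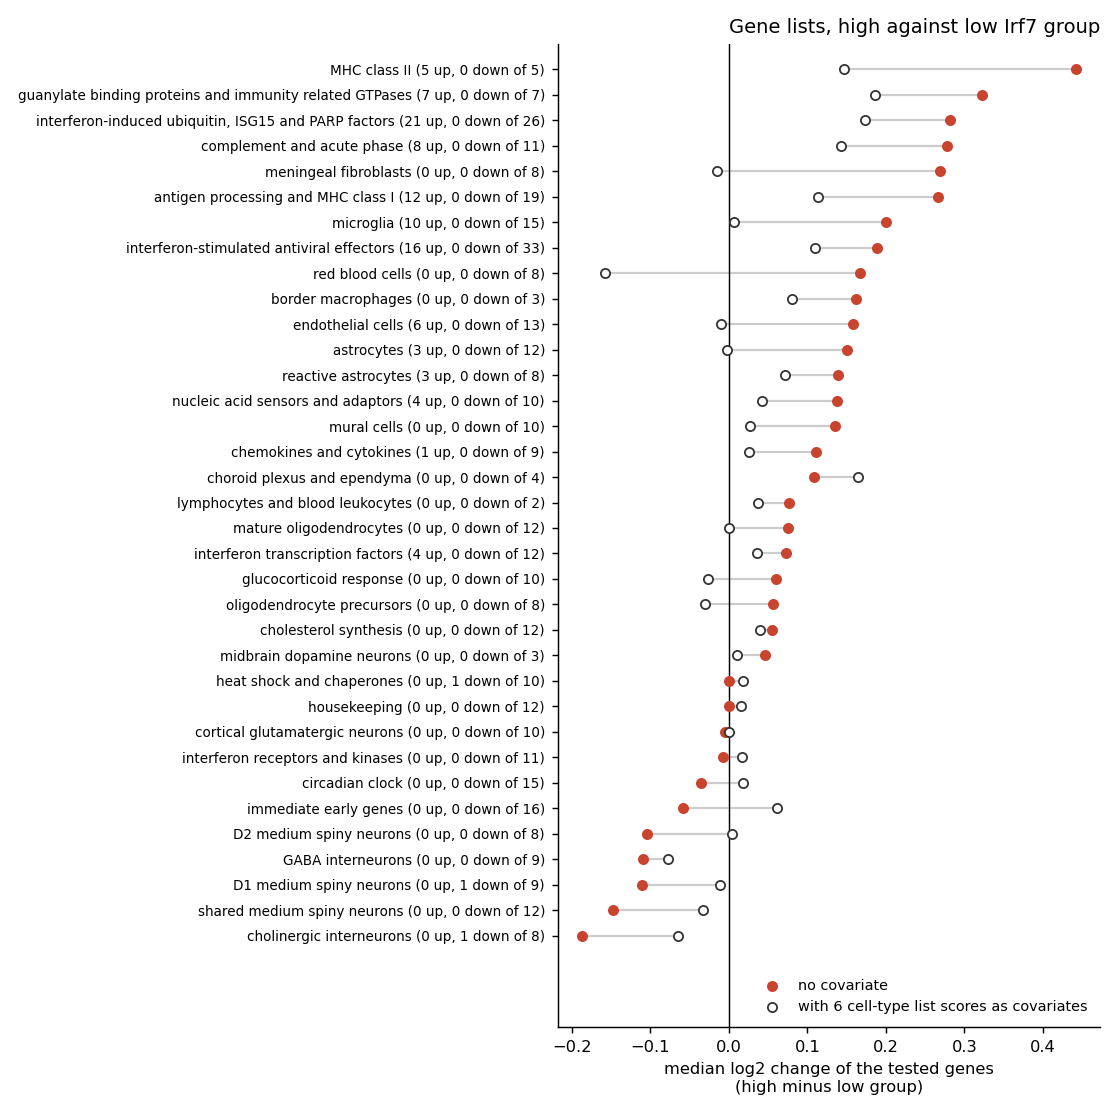
Median log2 change of the tested genes of each list between the groups (horizontal axis), without covariates (filled) and with the 6 cell-type list scores as covariates (open), with the number called higher and lower of those tested behind each name. MHC class II is highest at 0.44 and cholinergic interneurons lowest at -0.19, and both lie nearer 0 with the covariates.

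The 59 lower genes had small changes, with a median of -0.14. With the Xist side as a covariate 9 genes were lower in place of 59, and of the 15 falls named here Igf2bp2, Pcdhga12 and Hs6st1 remained called, while Chrm4 (adjusted p = 0.070), Ntn1 (0.097), Glra2 (0.098) and the others did not. Igf2bp2, an RNA-binding protein, went from a median of 2.65 to 2.03 CPM (-0.29, SE 0.064, adjusted p = 0.0058). Pcdhga12, a clustered protocadherin, went from 47.9 to 40.5 CPM (-0.24, SE 0.053), and 5 of 36 high libraries were above the low median. Glra2, a glycine receptor subunit, went from 21.7 to 18.3 CPM (-0.23, SE 0.063). Chrm4, a muscarinic receptor of striatal projection neurons, was at 68 to 104 CPM in the low group (median 90.9) and at 45.9 to 106 CPM in the high group (median 75.8), a change of -0.20 (SE 0.057, adjusted p = 0.036). Ntn1, the axon guidance protein netrin, changed by -0.21 (SE 0.062) and Hs6st1, a heparan sulfate enzyme, by -0.19 (SE 0.040, adjusted p = 0.0033). Ado, Pnma8b, Khdrbs2, Slc24a4, Lgr6, Zswim9, C8h11orf87, B3galt1 and Pcdha4 had changes between -0.22 and -0.17.

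Marker lists of striatal neurons had negative medians, with few calls of single genes. By the mean standardised level, the D1 neuron list was lower by 0.322 (permutation test, adjusted p = 0.0316) and the cholinergic list by 0.554 (adjusted p = 0.0217). The list shared by medium spiny neurons had an adjusted p of 0.055, and the D2 neuron and GABA interneuron lists each had 0.0983. Of 12 genes shared by medium spiny neurons, 0 were called and 1 had a positive change (median -0.15). Pde10a was at a median of 752 CPM in the low and 616 CPM in the high group (-0.24, SE 0.078, adjusted p = 0.069). Drd1, whose level also set which libraries were kept, was at 358 and 319 CPM (-0.16, SE 0.063, adjusted p = 0.12), and Drd2, chosen after its values were seen, at 186 and 186 CPM (-0.05, SE 0.054). Of 9 D1 neuron genes only Chrm4 was called. Of 8 genes of cholinergic interneurons, Ache was called (-0.16, SE 0.049, adjusted p = 0.050), and the median of the list was -0.19. Immediate early genes (0 of 16 called, median -0.059), glucocorticoid response genes (0 of 10, 0.061) and clock genes (0 of 15, -0.036) showed no call by limma. Since 2.3% of all genes were called higher and 0.385% lower, lists of this size would hold few calls or none. At the looser threshold of an unadjusted p under 0.05, 3560 of all genes passed. Of 10 heat shock genes, Hsph1 was lower (-0.14, SE 0.040).

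With the scores of 6 lists as covariates (cortical neurons, oligodendrocytes, astrocytes, microglia, endothelial cells and meningeal fibroblasts), a fit added after the data were seen, 23 genes were higher (0.15% of genes tested) and 0 lower, and 686 had an unadjusted p under 0.05. All 23 were also called without covariates, and 19 of them were interferon genes. Usp18 kept a change of 0.78 (SE 0.089, adjusted p = 6.5e-09), Oas1a of 0.63 (SE 0.079), Ifit3 of 0.56 (SE 0.095), RT1-T24-4 of 0.54 (SE 0.076), Rsad2 of 0.52 (SE 0.093) and Rtp4 of 0.52 (SE 0.070). RT1-S3, Slfn2, Isg15, Oasl2, Irgm, Parp14, Parp9, Dhx58, Lgals3bp, Irf9, Helz2 and Ifih1 were among the other interferon genes, with changes from 0.28 to 0.38. The remaining 4 were C4a (0.44, SE 0.070), Cfb (0.40, SE 0.060), Clec2g (0.23, SE 0.040) and LOC133667826 (0.48, SE 0.061), and the last 2 and Helz2 were named after their values were seen.

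With the covariates, the median changes of the called genes were nearer 0. The median change of the 70 interferon genes was 0.33 without and 0.20 with the 6 scores, and 70 of 70 kept their sign. For the 282 other higher genes the medians were 0.22 and 0.066, with 263 of 282 keeping their sign, and for the 59 lower genes they were -0.14 and -0.048, with 58 of 59. The MHC class II list had the largest drop in its median among the interferon lists, with Cd74 at 0.09 (adjusted p = 1.00) and the list median at 0.15 against 0.44. B2m stood at 0.11 (adjusted p = 0.84), Bst2 at 0.31 (adjusted p = 0.10) and Ifitm3 at 0.29 (adjusted p = 0.22). With the microglial score as the only covariate, 30 genes were higher, 26 of them interferon genes. The scores are averages of genes that were also tested, so a gene such as Csf1r was adjusted in part by its own level.

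**Figure D4:**
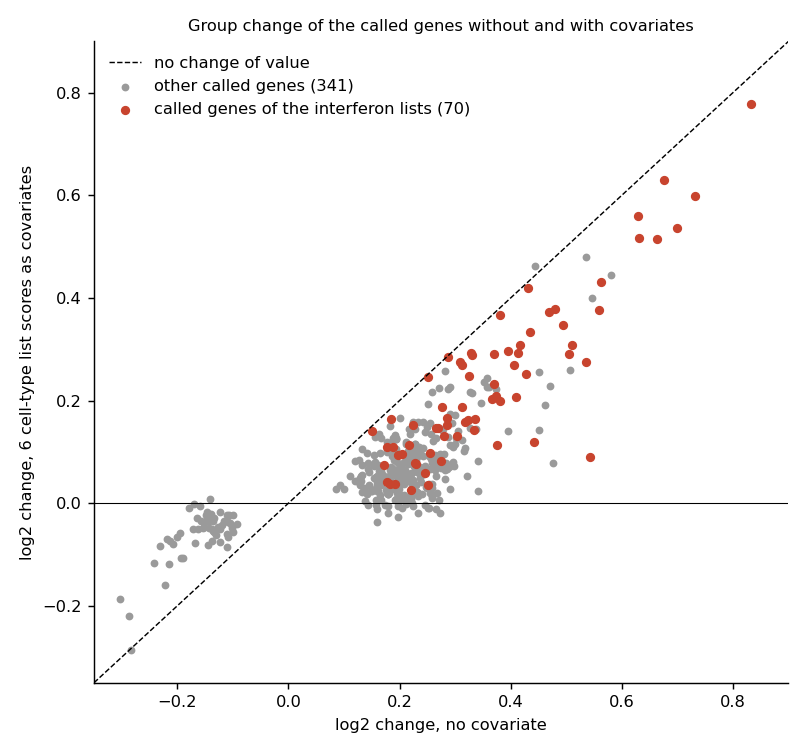
Log2 change of the 411 called genes between the groups without covariates (horizontal axis) and with 6 cell-type list scores as covariates (vertical axis), 1 point per gene. The interferon genes (70, red) have medians of 0.33 without and 0.20 with the scores, and the 282 other higher genes 0.22 and 0.066. The 59 lower genes have medians of -0.14 and -0.048. The dashed line marks equal values, and Usp18, at 0.83 and 0.78, is farthest right.

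The 75 libraries between the groups share no library with the comparison. There, the slope of each gene on log2(Irf7 CPM + 1) was called by limma for 0 genes, and 2.42% of genes had an unadjusted p under 0.05. Slopes that were positive with such a p were found for 182 genes (1.19% of genes tested) and for 12 of the 70 interferon genes. Of these 70, 57 had a positive slope, with a median of 0.12 against -0.015 for all genes. Of the 352 genes higher between the groups, 244 (69.3%) had a positive slope, where 44.8% of all tested genes did. Of the 59 lower genes, 45 (76.3%) had a negative slope, where 55.2% of all did. Genes are not independent of each other, and these shares carry no test. Oas1a (slope 0.61, SE 0.150), Isg15 (0.60, SE 0.170), Slfn2 (0.59, SE 0.139), RT1-T24-4 (0.55, SE 0.137) and Dhx58 (0.49, SE 0.131) were steepest among the named interferon genes, with adjusted p-values from 0.18 to 1.00. Rsad2 (0.03, SE 0.201), Ifi27 (0.11, SE 0.411), Parp14 (0.02, SE 0.157) and Mx1 (0.06), all called between the groups, had small slope estimates there. With SEs of this size, a small estimate does not show that a slope is absent.

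**Figure D5:**
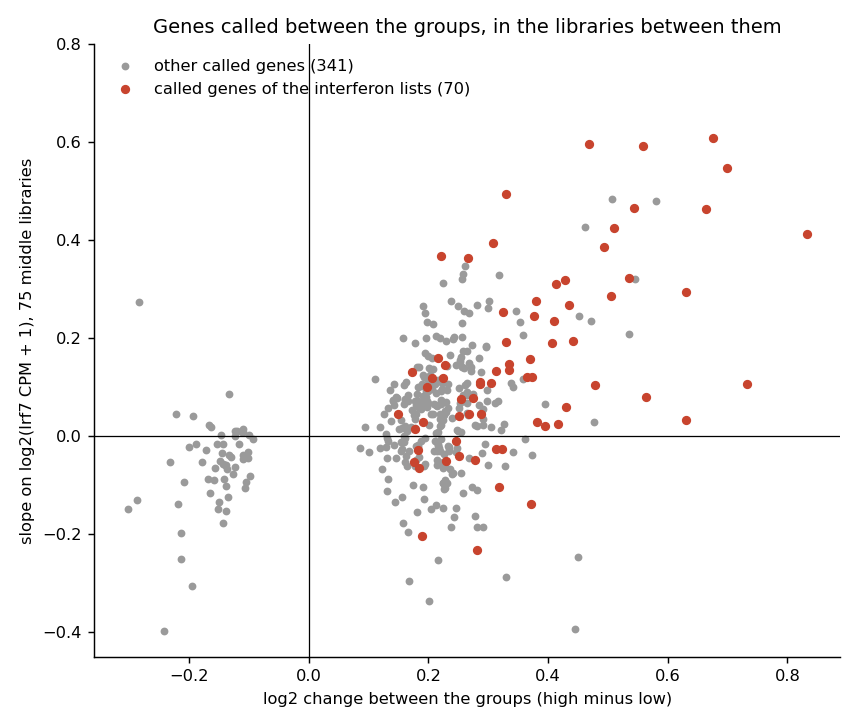
Slope on log2(Irf7 CPM + 1) in the 75 middle libraries (vertical axis) against the log2 change between the groups (horizontal axis) for the 411 called genes, 1 point per gene. Of the interferon genes (70, red), 57 are above 0 on the vertical axis, and the genes lower between the groups lie mostly below it.

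The genes most like Irf7 over these 75 libraries were Hacd1 (Pearson's r 0.48), Slfn2 (0.45), Oas1a (0.43), RT1-T24-4 (0.42), Sync (0.42), Dhx58 (0.41), Isg15 (0.38), Prr18 (0.37), Eml3 (0.35) and RT1-N3 (0.34), by r of log2(CPM + 1). Of these 10, 5 were interferon genes called between the groups. Hacd1, an enzyme of fatty acid elongation, and Sync were not called between the groups, with changes of 0.04 (SE 0.055) and 0.00 (SE 0.073).

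The groups were also drawn again within each identifier format. Within E21 identifiers, with 19 libraries a group, 35 genes were higher and 27 of these were interferon genes. Within all-digit identifiers, with 14 libraries a group, 40 were higher and 21 were interferon genes. Usp18 changed by 0.89 and 0.72, Oas1a by 0.67 and 0.70, Rsad2 by 0.58 and 0.68, and C4a by 0.61 and 0.61. A test of the difference between formats called 0 genes by limma, with 620 at an unadjusted p under 0.05. With the format as a covariate, 71 interferon genes were higher.

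The deposited table places the start of Irf7 at position 205800543 of chromosome 1 in GRCr8, upstream of the RefSeq start used for the promoter window. Of 33 tested genes that start within 500 kb of it, 1 was higher and 0 lower, with a median change of 0.060 and a range from -0.11 to 0.50. Of all genes tested, 2.3% were higher and 0.385% lower, so a set of this size would hold few calls or none. The one that was higher was Ifitm3, an interferon gene in its own right, and its neighbour Ifitm2 was not called (0.25, SE 0.078, adjusted p = 0.064). The genes beside Irf7, among them Phrf1 (-0.10, SE 0.045), Rassf7 (-0.02, SE 0.061), Lrrc56 (0.14, SE 0.071), Hras (0.06, SE 0.036) and Deaf1 (0.04, SE 0.031), were not called.

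The libraries at the top of the ranking differed in their other interferon genes. The highest library, at 16.5 CPM of Irf7 and with an E21 identifier, was second of 147 for Usp18 (4.57 CPM), second for Ifit3 (3.68 CPM) and first for Mx2 (59 CPM). It was 77th for Ifi27 (19.9 CPM) and 83rd for B2m (212 CPM). The library at rank 3 for Irf7 (9.34 CPM) was first for B2m (413 CPM) and RT1-T24-4 (28.7 CPM) and 52nd for Ifit3 (1.58 CPM). The library at rank 5 (7.51 CPM) was first for Isg15 (3.22 CPM), Rsad2 (6.24 CPM) and Mx1 (4.67 CPM). No single library thus led in all of these genes. Without the 5 highest libraries, 252 genes were higher and 27 lower, and 58 of the higher were interferon genes.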

How the data were processed

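RNA of the nucleus accumbens core was measured by polyA RNA-seq. Per the submitters' processing notes, kallisto 0.48 produced the estimates, and annotation and strand are not stated. For 38354 genes the authors deposited unscaled log2 values, which the numbers show to be log2(expected count + 1). The file names no build, but 38278 of 38278 symbols found in RefSeq's table start at a gene end of GRCr8. Columns with no matching sample numbered 0. Estimated counts of genes with near-identical copies or overlapping partners are uncertain.

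Values were turned back, scaled to CPM and analysed as log2(CPM + 1) with limma 3.58.1 in R 4.3.3 (trend, two-sided, Benjamini-Hochberg over all genes with a mean of 1 CPM or more). The procedure was tested on simulated data with independent genes and the spread of the low group in both groups. Genes in the data are not independent of each other, which that test did not cover. List scores are means of standardised values and were compared with 100000 permutations. Drd1 libraries under 100 CPM were left out. Tables were handled in Python 3.11.15 with scipy 1.17.1.

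The libraries, lists and tests were chosen with earlier results of these data known. Named are the 15 largest rises and falls among called genes, leaving out placeholder symbols such as LOC or RGD numbers, up to 10 members of each interferon list (all of a list of 15 or fewer) and up to 4 of other lists with the smallest p, genes within 500 kb of Irf7, the 10 genes most correlated with it in the middle libraries, and Irf7, Isg15 and Mx1. Some genes that the rule takes are left out of the text. Expected counts were not tested with a count model, since the deposited values are on a log2 scale. Alternatives covered the pseudocount, filter, scaling, size of the groups, ranking gene and covariates.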

Additional observations from a re-analysis of the deposited data

How the results depend on the processing

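No paired analysis was possible because each library is a different rat and no label links libraries of the groups. The 352 higher and 59 lower genes, of which 70 higher were interferon genes, changed as follows, and the cause was not tested except where fewer libraries or genes entered. Calls were 207 higher and 8 lower without a filter, 135 and 31 (interferon 16) at a mean of 10 CPM or more, 104 lower with median-of-ratios scaling, 135 and 8 with that scaling and a new ranking, and 196 higher with quantile normalization. Groups of 49 libraries gave 177 and 15, groups of 14 gave 92 and 11 (interferon 46), and the slope over all kept libraries 168 and 10. Ranked by Isg15 there were 3823 and 4371, by Mx1 40 and 0 (interferon 28), and over all libraries 3080 and 2699. As covariates, the label class gave 96 lower, depth 100 lower, the Xist side 169 and 9, the microglial score 30 and 1 (interferon 26), the cortical, oligodendrocyte and astrocyte scores 52 and 0 (interferon 37), the endothelial and meningeal scores 24 and 0 (interferon 20), and all 6 scores, added after the data were seen, 23 and 0 (interferon 19). E21 identifiers alone gave 35 and 2 (interferon 27), all-digit ones 40 and 0 (interferon 21), and leaving out the 5 highest libraries gave 27 lower. In the middle libraries 1 slope was called with median-of-ratios scaling. Among the called genes that the naming rule takes, the sign turned for Ntn1 (0.041), Slc1a3 (-0.045) and Ache (0.22) over all libraries, for Pcdha4 (0.0074) and S100b (-0.0067) with the microglial score, for Csf1r (-0.0040) and Cldn5 (-0.0096) with all 6 scores and for Cdh5 (-0.0030) with the endothelial and meningeal scores. Low levels limit the precision of the interferon genes.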

Other observations

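Of 15325 genes tested, a ranking of the same libraries by Isg15 called 3823 higher and 4371 lower by limma. Of the higher genes, 80 belonged to the interferon lists. The antiviral effectors had 3 lower members, the receptors and kinases 4, and the nucleic acid sensors and the chemokines and cytokines 1 each. With so many of all genes called, a short list would often hold calls in either direction. In that ranking 9 of 12 shared medium spiny neuron genes were lower, with a median change of -0.23, and 5 of 10 cortical neuron genes were higher, with a median of 0.64. Red blood cell genes were higher in 7 of 8 cases (median 0.59) and MHC class II genes in 5 of 5 (median 0.52). In the ranking by Irf7 the cortical list had a median of -0.0055 and the red blood cell list 0 calls by limma. Only 2.3% of all genes were called higher in that ranking. What sets these lists apart in the Isg15 ranking was not tested.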
